A study of Mus musculus with 60 samples.

Results

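Skeletal muscle of young mice is covered by 4 of the 60 bulk RNA-seq libraries of the series, chosen by their labels alone, and was set against the 20 libraries of young skin, kidney, liver, lung and spleen, 4 per tissue. The young mice were C57BL/6 animals aged 3 months and received no doxycycline. They were heterozygous for the inducible 4F cassette, which encodes Sox2, Oct4, Klf4 and c-Myc, and for the R26::rtTA transactivator, so every group used here carries both transgenes. In each young tissue libraries 1 and 2 came from males and libraries 3 and 4 from females. The study also holds muscle of 26-month-old mice of the same genotype, with 3 libraries from 4F-induced animals and 3 from untreated animals, each with 2 males and 1 female. Doxycycline was given to induced mice in the water at 1 mg/ml, on 2 days of each week during 1 month that began at the age of 25 months. These old libraries did not enter the comparison of young tissues and served to measure the same genes in other animals. The labels do not say which muscle was dissected, and no source ties the tissues of a mouse to each other.

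A muscle fibre shortens when myosin of the thick filament pulls on actin of the thin filament inside sarcomeres bounded by Z discs. The nerve signal crosses the neuromuscular junction, spreads along the fibre membrane and opens the ryanodine receptor of the sarcoplasmic reticulum at the triad, and the calcium ATPase then pumps calcium back. Creatine phosphate, glycogen and mitochondrial oxidation supply the ATP, and the myogenic factors with partners such as Mef2c switch on the genes for all of these parts.

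Total counts were 31093061 to 36157047 per young muscle library and 17547579 to 47518480 in the other 20 libraries. The 10 most counted genes took 20.2 to 23.4% of the counts of a muscle library and 6.34 to 21.0% of the counts of another library. Both genes that mark skeletal muscle were high. Acta1, the skeletal actin of the thin filament, stood at 46910, 47660, 39090 and 49220 CPM (counts scaled to library size by TMM, the unit of all levels below unless TPM is named) in muscle libraries 1 to 4, against at most 22.9 CPM in the 16 kidney, liver, lung and spleen libraries. Ckm, the muscle creatine kinase, stood at 24860, 26160, 19310 and 27060 CPM in muscle and at most 30.6 CPM in those 16 libraries. Skin was different, with 24910, 12140, 24680 and 52630 CPM for Acta1 and 9881, 6697, 11300 and 19300 CPM for Ckm in its 4 libraries, so its Acta1 range overlapped that of muscle. The source of muscle transcripts in the skin libraries was not tested. Each gene was therefore compared with the 4 tissues other than skin and with skin separately.

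Other cell types left traces that touch some results. The summed level of 8 adipocyte markers was 654.5, 2092, 6507 and 1853 CPM in muscle libraries 1 to 4, against 1756 to 9022 CPM in skin, and all 4 muscle libraries had it above kidney, liver and spleen. Kidney epithelial markers summed to 109, 68.0, 0.581 and 0.824 CPM in the muscle libraries, against at least 20480 CPM in kidney. Keratinocyte markers summed to 15.5 to 18.5 CPM in muscle and 1519 to 8953 CPM in skin, and cardiomyocyte markers to 3.32 to 9.37 CPM in muscle and 309 to 1061 CPM in lung. In bulk tissue, fewer cells of a type and less RNA per cell cannot be told apart. The part of these cells in the results was not tested. Liver library 4 also stood apart, with 22.9 CPM of Acta1 and 23.9 CPM of Myh4 against at most 0.673 and 0.168 CPM in the other liver libraries. Without it the smallest log2 fold change of Acta1 over the 4 tissues was 15.56 instead of 13.41, and that of Myh4 18.42 instead of 13.38. Both stayed called.

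Young muscle differed from each of kidney, liver, lung and spleen in 2940 genes that were higher in muscle, which is 13.8% of the 21377 genes tested, and in 1928 that were lower, which is 9.02%. A gene counted as different when edgeR's quasi-likelihood test gave an adjusted p under 0.05 in the same direction against every one of the 4 tissues. The log2 fold change quoted for these 4 tissues is the smallest of the 4, with its SE, and the adjusted p is the largest. Every SE and adjusted p between young tissues rests on 1 spread per gene, estimated over all 24 young libraries. A test against skin therefore does not use the spread of muscle and skin alone. The 12 groups of muscle genes, sorted by function, hold 221 genes, of which 220 are in the count table and 219 passed the filter on low counts. Of these 219, 181 were higher in muscle than in all 4 tissues and 0 were lower. Against skin alone 126 of the 219 were higher in muscle and 10 were lower, where 24.2% and 25.8% of all genes tested were called. The median log2 fold change against skin was 1.01 over the 219 members and -0.04 over all genes tested. Of the 181, 107 also passed against skin and so against all 5 tissues, which 7.7% of all genes did in the higher and 4.72% in the lower direction. Against the mean of the 5 tissues 207 members were higher and 6 lower, beside 32.4% and 33.4% of all genes. Scaling by library totals in place of TMM moved the median log2 fold change of all genes by -0.507 against the mean of 5 tissues and by -0.462 against skin, where DESeq2 size factors moved it by 0.001 and -0.011. With library totals 1715 genes were higher and 2561 lower than in all 4 tissues, 660 higher and 1742 lower than in all 5, 2140 higher and 9012 lower than in skin, and 165 of the 219 members were still higher than in all 4. With that scaling the members higher than in all 5 tissues were 8 instead of 13 for the triad, 7 instead of 11 for excitation and the junction, 1 instead of 4 for creatine and adenylate genes and 2 instead of 4 for secreted factors and growth control. Without muscle libraries 1 and 2 together they were 5 instead of 9 both for thick filament genes and for Z-disc genes, and 1 instead of 4 for creatine and adenylate genes.

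**Figure D1:**
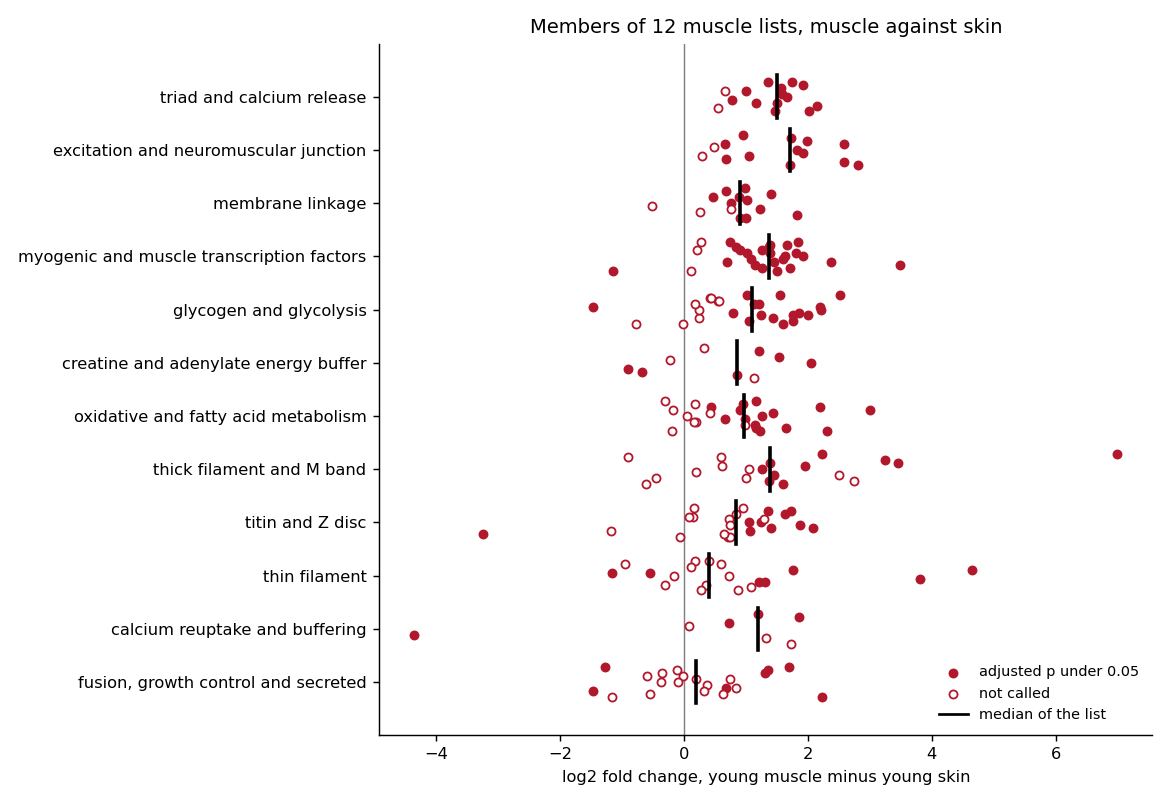
Log2 fold change of young muscle over young skin for each member of the 12 groups of muscle genes, 1 point per gene. Filled points have an adjusted p under 0.05, open points do not, and the black bar marks the group's median, which was highest in the neuromuscular group (1.72) and lowest in the fusion and growth group (0.19).

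Most of these genes were also high in muscle of old mice. Among the 2940 genes, 2288 were also higher in untreated old muscle than in each of the 4 old untreated tissues, which is 77.82% of the young list and 74.72% of the old one, and 1 gene was lower. In 4F-induced old mice 2249 of them were higher, which is 76.5% of the young and 80.61% of the old list, and again 1 was lower. Those old comparisons called 14.5% of the genes tested as higher in untreated old muscle and 13.2% in 4F-induced old muscle. Of the 181 members, 172 were called in each of the 2 old sets.

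Among the genes called higher than in all 4 tissues, with no muscle library below any of the 16 other libraries and a mean of at least 10 CPM in muscle, the 12 with the highest log2 fold change were Myot, 2310065F04Rik, Myf6, Odf3l2, Myoz1, Acta1, Myh4, Cacna1s, Jsrp1, Actn3, Nctc1 and Atp2a1. They take in 3 proteins of the Z disc, 2 of the filaments, and 3 of the triad and the calcium pump. The set depends on liver library 4. Without it the log2 fold changes of Tnnc2 and Myh2 were 16.15 and 14.96 instead of 12.82 and 12.94, above the 14.0 of Atp2a1. The ranking set no floor, so the places of genes near 0 counts in the 16 libraries, such as Odf3l2, depend on a few counts. Myot, a Z-disc protein that binds actinin, had 1618, 1840, 1294 and 2321 CPM in muscle and at most 0.290 CPM in the 16 libraries. Library 3 was the lowest of the muscle libraries and library 4 the highest. The RNA 2310065F04Rik had 205, 192, 75.9 and 126 CPM in muscle and at most 0.0311 CPM in the 16 libraries. The RNA Nctc1 had 174, 148, 108 and 186 CPM in muscle and at most 0.0580 CPM in the 16 libraries. Library 3 was the lowest muscle library for both. For Odf3l2 the muscle libraries gave 14.4, 27.2, 3.75 and 112 CPM and the 16 libraries 0 counts, so with 3 counts over the 4 libraries of a tissue taken as its floor, which is at most 0.0425 CPM, its mean was at least 923.8-fold higher in muscle. This gene varied most of the 12 between muscle libraries, and library 4 stood far above the others.

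The proximal promoters of 5 genes are shown because they represent the sarcomere, calcium release and glycogen groups, and Mybph the genes that also stand far above skin. Each run is the 250 bases upstream of the RefSeq start of the gene on GRCm38.p6, written 5′ to 3′ on the strand of the gene. Acta1 (ENSMUSG00000031972) lies on the minus strand at chr8:123894776-123895025. On the plus strand lie Myh4 (ENSMUSG00000057003) at chr11:67237562-67237811, Cacna1s (ENSMUSG00000026407) at chr1:136052561-136052810, Pygm (ENSMUSG00000032648) at chr19:6384158-6384407 and Mybph (ENSMUSG00000042451) at chr1:134193198-134193447. Capitals mark matches to the E-box CAGCTG bound by myogenic factors, the M-CAT box CATTCC bound by TEAD factors, the MEF2 motif and the CArG box bound by SRF, read on both strands.
Acta1: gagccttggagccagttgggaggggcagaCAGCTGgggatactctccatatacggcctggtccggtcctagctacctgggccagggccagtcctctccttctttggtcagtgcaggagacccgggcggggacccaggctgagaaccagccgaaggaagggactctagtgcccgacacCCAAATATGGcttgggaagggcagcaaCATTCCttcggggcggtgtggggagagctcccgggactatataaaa
Myh4: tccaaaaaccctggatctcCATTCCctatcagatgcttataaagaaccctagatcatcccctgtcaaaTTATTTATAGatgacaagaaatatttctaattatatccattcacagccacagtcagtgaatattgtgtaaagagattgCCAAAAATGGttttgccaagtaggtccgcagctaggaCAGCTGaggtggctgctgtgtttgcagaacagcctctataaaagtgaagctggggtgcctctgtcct
Cacna1s: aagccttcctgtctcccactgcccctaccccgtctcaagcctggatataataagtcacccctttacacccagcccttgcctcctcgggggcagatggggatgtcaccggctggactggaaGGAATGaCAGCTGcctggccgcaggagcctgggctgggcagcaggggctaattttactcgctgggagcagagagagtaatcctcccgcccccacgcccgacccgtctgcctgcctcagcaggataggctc
Pygm: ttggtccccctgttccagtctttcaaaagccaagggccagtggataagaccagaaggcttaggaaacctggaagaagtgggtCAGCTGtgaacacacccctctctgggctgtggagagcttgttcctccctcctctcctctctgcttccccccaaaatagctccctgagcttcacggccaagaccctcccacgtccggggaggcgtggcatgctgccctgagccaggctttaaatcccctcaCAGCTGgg
Mybph: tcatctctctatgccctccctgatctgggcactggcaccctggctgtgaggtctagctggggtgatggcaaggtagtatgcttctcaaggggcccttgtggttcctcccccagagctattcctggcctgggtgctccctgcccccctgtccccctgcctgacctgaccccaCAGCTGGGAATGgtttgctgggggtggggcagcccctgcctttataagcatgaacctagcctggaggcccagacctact

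Acta1 holds an E-box that begins 221 bases before the start, a CArG box at 73 and an M-CAT box at 46 bases before it. In Myh4 the M-CAT box begins at 231, the MEF2 motif at 182, the CArG box at 104 and the E-box at 67 bases before the start. Cacna1s has an M-CAT box and an E-box at 130 and 123 bases, and Pygm has E-boxes at 168 and 8 bases. In Mybph the E-box at 79 bases runs directly into the M-CAT box at 73. No matches overlapped in these 5 sequences.

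A promoter entry was found for 136 of the 181 members higher in muscle, and 32.4% of them held the E-box within 250 bases. The share was 12.6% over the 13979 tested genes with an entry and 12.8% over all 27025 promoters. The MEF2 motif was in 13.2% of the members, 1.91% of tested genes and 3.01% of all promoters. The M-CAT box was in 16.2%, 11.2% and 12.6%, and the CArG box in 5.88%, 1.19% and 1.4%. By group, thick filament genes higher in muscle held the MEF2 motif in 29.4% and the M-CAT box in 35.3% of their 17 promoters, and transcription factor genes higher in muscle held them in 0% and 14.3% of 14. These shares describe letters in a window and say nothing about binding.

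Thin filament genes took a large share of the counts of young muscle. Of the 19 members tested, 15 were higher in muscle than in all 4 tissues, and 3 of those 15 were higher than in skin. Beside these counts, and those of each group below, stand 13.8% and 7.7% of all genes tested. Against skin alone 5 of the 19 were higher and 2 lower, where 24.2% and 25.8% of all genes tested were called. Tpm1, the alpha-tropomyosin that covers the myosin sites on actin, had 21860, 23650, 15690 and 21570 CPM in muscle, 8202, 5755, 8403 and 11130 CPM in skin and at most 457 CPM in the 16 libraries. Its muscle libraries all lay above its skin libraries, and the log2 fold change was 5.89 ± 0.30 against the nearest of the 4 tissues (adjusted p = 1.4e-12) and 1.31 ± 0.25 against skin (adjusted p = 0.000202). Neb, the nebulin ruler that runs along the thin filament, had 6885, 6179, 5836 and 8253 CPM in muscle and 2800, 1521, 2186 and 1511 CPM in skin, with a log2 fold change over skin of 1.76 ± 0.25 (adjusted p = 9.1e-06). Again no skin library reached the lowest muscle library. The fast troponins Tnnt3, Tnni2 and Tnnc2 had means of 25010 ± 4445, 9992 ± 2098 and 725 ± 117 CPM in muscle and 15700 ± 4866, 9782 ± 4366 and 623 ± 228 CPM in skin (SD, n = 4 each). Their differences from skin did not pass the test (adjusted p = 0.511, 0.923 and 0.58), and neither did that of Acta1, at 0.87 ± 0.87 (adjusted p = 0.427).

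Some thin filament genes did not follow Acta1. Lmod2, a leiomodin that helps actin filaments to grow, was higher in muscle than in the 4 tissues but lower than in skin, with 77.2, 195, 163 and 268 CPM in muscle and 429, 194, 428 and 519 CPM in skin (log2 fold change -1.16 ± 0.41, adjusted p = 0.023). Its call against skin was lost without muscle library 1 or 3 or skin library 1 or 4, with adjusted p of 0.0814, 0.0524, 0.0509 and 0.0601. Actc1, the cardiac actin, was at 116, 184, 343 and 320.5 CPM in muscle, 14.5, 23.9, 4.05 and 3.01 CPM in skin and 333, 106, 132 and 133 CPM in lung. Muscle and lung overlapped for this gene, and lung is also where the cardiomyocyte markers were highest. The slow and cardiac troponins Tnnc1 and Tnnt2 were not higher in muscle than in all 4 tissues either, with muscle means of 8.66 and 4.11 CPM and lung means of 18.6 and 106 CPM. Tpm3, whose product is found in slow fibres and in many other cells, was lower in muscle than in skin (log2 fold change -0.55 ± 0.16, adjusted p = 0.00728).

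**Figure D2:**
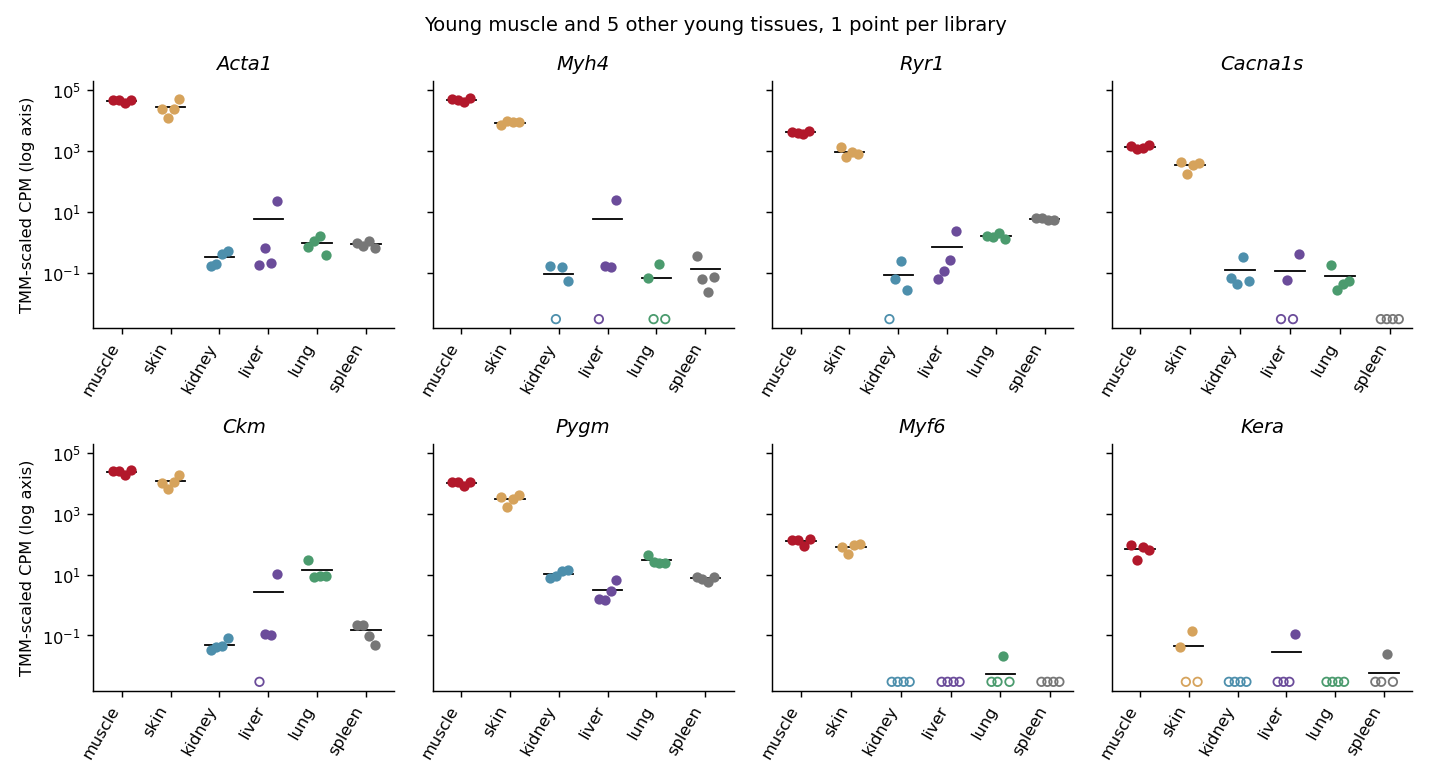
Level of 8 genes in each young library (CPM, log axis), with muscle first and then skin, kidney, liver, lung and spleen. Points are libraries, open circles are libraries with 0 counts drawn at the bottom edge and bars are means. Muscle lies far above kidney, liver, lung and spleen in every panel, and skin is near muscle for Acta1 but at or below 0.140 CPM for Kera.

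Of the 20 thick filament and M-band genes, 19 were higher in muscle than in the 4 tissues and 9 of these were higher than in skin. Myh4, the heavy chain of type IIB fast fibres, was the most counted gene of young muscle, at 3.59% of its counts. It had 50980, 47830, 40650 and 54100 CPM in muscle and 7346, 9630, 8871 and 8823 CPM in skin. The groups did not overlap, yet the log2 fold change over skin was 2.50 ± 1.11 with an adjusted p of 0.0689, which missed the threshold. Without liver library 1, 3 or 4 it passed, with adjusted p of 0.0425, 0.0461 and 0.0012. The SE used here rests on all young tissues, liver included, and not on muscle and skin alone. Myh1, the IIX heavy chain, had 2870, 5783, 4594 and 5425 CPM in muscle and 11800, 2956, 6069 and 5360 CPM in skin and the ranges overlapped. Myh2, the IIA heavy chain, had 742, 1950, 1557 and 2421 CPM in muscle and 539, 324, 1236 and 602 CPM in skin, and muscle was higher (log2 fold change 1.39 ± 0.48, adjusted p = 0.023). That call was lost without muscle library 2 or skin library 2 or 4, with adjusted p of 0.118, 0.0525 and 0.0555. These heavy chains are close copies of each other, so how reads shared by them were counted is uncertain. The slow heavy chain Myh7 was the 1 member not above all 4 tissues, with 1.05, 62.1, 4.26 and 14.6 CPM in muscle and a lung mean of 17.7 CPM.

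Among regulators of myosin, Mylk4, a kinase of the myosin light chain kinase family, had 4311, 4237, 2464 and 2720 CPM in muscle and 879, 607, 861 and 599.8 CPM in skin, with a log2 fold change of 2.22 ± 0.53 (adjusted p = 0.00161). Mylk2, the skeletal light chain kinase, had a log2 fold change over skin of 1.45 ± 0.43 (adjusted p = 0.00798). Unc45b, the chaperone that folds myosin, had 521, 514, 438 and 513 CPM in muscle and 232, 138, 216 and 178 CPM in skin (log2 fold change 1.38 ± 0.17, adjusted p = 1.6e-06). For both kinases and the chaperone every muscle library was above every skin library. The fast light chains Mylpf and Myl1 had log2 fold changes over skin of 0.60 ± 0.48 and 1.05 ± 0.62 that did not pass (adjusted p = 0.316 and 0.173). Mybph, a relative of myosin binding protein C, had 105, 144, 315 and 308 CPM in muscle and 4.28, 14.1, 37.5 and 30.3 CPM in skin, the highest log2 fold change over skin among thick filament genes called against all 5 tissues at 3.45 ± 0.37 (adjusted p = 2.47e-07). In both tissues its libraries 3 and 4, from females, were above libraries 1 and 2, from males.

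Titin and Z-disc genes were higher in muscle than in the 4 tissues in 22 of 23 cases, 9 of them also against skin. Ttn, the titin spring, had 8056, 8263, 8255 and 10650 CPM in muscle, 6872, 3989, 6219 and 4262 CPM in skin and a lung mean of 58.3 CPM. Actn3, the actinin of fast fibres, had 11820, 9722, 10120 and 15910 CPM in muscle and 2381, 1837, 3105 and 4500 CPM in skin, and the difference passed (log2 fold change 2.08 ± 0.71, adjusted p = 0.0191). By contrast Actn2, the actinin of all fibres, had 506, 906, 581 and 891 CPM in muscle and 796, 374, 719 and 731 CPM in skin, which overlapped (adjusted p = 0.766). Mypn, a scaffold protein of the Z disc, was higher in muscle than in skin with a log2 fold change of 1.87 ± 0.36 (adjusted p = 0.000214). Csrp3, the muscle LIM protein, went the other way. It had 19.1, 68.9, 50.99 and 120.1 CPM in muscle and 449, 279.8, 663 and 1095 CPM in skin, every skin library was above every muscle library, and the log2 fold change was -3.25 ± 0.50 (adjusted p = 2.18e-05). It was also the 1 member not higher than the 4 tissues, with a liver mean of 36.6 CPM.

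Of 14 genes that tie the sarcomere to the membrane, 13 were higher in muscle than in the 4 tissues and 10 of those 13 higher than in skin. With library totals in place of TMM 3 members were higher than in all 5 tissues, without muscle libraries 1 and 2 together 5 were, and past a 2-fold change 1 was. Dmd, which encodes dystrophin, had 191, 175, 203 and 281 CPM in muscle and 142, 78.01, 112 and 85.5 CPM in skin (log2 fold change 1.00 ± 0.21, adjusted p = 0.000411). Dag1, the dystroglycan that dystrophin binds, had 665, 606, 628 and 798 CPM in muscle and 251, 156, 202 and 153 CPM in skin (log2 fold change 1.82 ± 0.17, adjusted p = 5.26e-08), and muscle was 0.93 ± 0.17 above the nearest of the 4 tissues on the log2 scale (adjusted p = 4.03e-05). Dysf, the membrane repair protein dysferlin, was higher than in skin by 1.41 ± 0.19 on the log2 scale (adjusted p = 4.78e-06). No skin library reached the muscle range for these 3 genes. Utrn, the dystrophin relative utrophin, was not above the 4 tissues, with a muscle mean of 159.7 CPM and a lung mean of 298 CPM. Cav3, the muscle caveolin, was not called against skin (log2 fold change -0.52 ± 0.25, adjusted p = 0.1). Without skin library 2 Cav3 was called lower in muscle (adjusted p = 0.0142).

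At the triad, where the membrane signal releases calcium, all 15 members were higher in muscle than in the 4 tissues and 13 were also higher than in skin. Cacna1s, the voltage sensor of the dihydropyridine receptor, had 1425, 1180, 1218 and 1629 CPM in muscle, 429.9, 172, 343 and 415 CPM in skin and at most 0.406 CPM in the 16 libraries. The log2 fold change was 13.36 ± 0.70 against the nearest of the 4 tissues (adjusted p = 1.58e-11) and 2.02 ± 0.42 against skin (adjusted p = 0.000683). Ryr1, the calcium release channel, had 4353, 3782, 3743 and 4729 CPM in muscle and 1343, 635, 907 and 823 CPM in skin, a log2 fold change of 2.15 ± 0.53 (adjusted p = 0.00225). No skin library reached the muscle range of either gene. Jph1 and Jph2, which hold the membranes of the triad together, were 1.93 ± 0.19 and 1.66 ± 0.21 higher than in skin on the log2 scale (adjusted p = 1.18e-07 and 1.86e-06). Stac3, an adaptor needed for the coupling of sensor and channel, had 528, 478, 382 and 524 CPM in muscle and 166, 109, 197 and 172 CPM in skin (log2 fold change 1.58 ± 0.21, adjusted p = 3.54e-06). The 2 members that did not pass against skin were Jsrp1, a triad protein that binds the voltage sensor and calsequestrin, at 0.54 ± 0.29 (adjusted p = 0.135, and 0.0262 without skin library 4), and Casq2, the calsequestrin of heart and slow fibres, at 0.66 ± 0.42 (adjusted p = 0.196).

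Calcium reuptake and buffering included 2 genes with very high counts. Atp2a1, the fast-fibre calcium ATPase SERCA1, had 44680, 40680, 39220 and 57320 CPM in muscle, 15360, 7907, 12920 and 19480 CPM in skin and at most 23.4 CPM in the 16 libraries. Pvalb, the calcium buffer parvalbumin, had 19550, 16690, 12930 and 18240 CPM in muscle and 6201, 5518, 6480 and 11010 CPM in skin. Every muscle library was above every skin library for both, but neither difference from skin passed (adjusted p = 0.145 and 0.215). Without liver library 4 both passed (adjusted p = 0.00148 and 0.0227). Of the 7 members tested, 4 were higher than the 4 tissues, namely Atp2a1, Pvalb, the pump inhibitor Mrln and Sypl2, a mitsugumin of the triad. Sln, which encodes the pump inhibitor sarcolipin, was nearly absent, at 1.46, 1.72, 2.17 and 2.20 CPM in muscle against 6.46, 10.6, 51.95 and 109.9 CPM in skin, and the log2 fold change was -4.35 ± 0.84 (adjusted p = 0.000567). Its lung libraries had 49.6, 18.01, 18.1 and 14.2 CPM. Pln, the inhibitor phospholamban, stayed at or below 1.14 CPM in muscle.

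Membrane excitation and the neuromuscular junction had the highest median difference from skin of the 12 groups, and 13 of 14 genes were higher in muscle than in the 4 tissues, 11 of them also than in skin. Scn4a, the muscle sodium channel, had 944, 839, 713 and 967 CPM in muscle and 182, 74.6, 149 and 91.5 CPM in skin, a log2 fold change of 2.80 ± 0.39 (adjusted p = 6.55e-06). Clcn1, the chloride channel that steadies the resting potential, had 343, 329, 262 and 326 CPM in muscle and 61.2, 27.2, 73.8 and 45.7 CPM in skin (log2 fold change 2.59 ± 0.37, adjusted p = 9.3e-06). For both channels the lowest muscle library was above the highest skin library. Among acetylcholine receptor subunits, the adult Chrne had a mean of 28.9 ± 3.84 CPM and the fetal Chrng 0.580 ± 0.0952 CPM in muscle (SD, n = 4). Per length the difference was larger, with 34.1 ± 2.62 TPM for Chrne and 0.281 ± 0.0607 TPM for Chrng. Musk, the receptor kinase that gathers the acetylcholine receptors, had 27.2, 29.4, 9.99 and 12.6 CPM in muscle, with the libraries from males above those from females. Colq, the anchor of acetylcholinesterase, was the 1 member not above all 4 tissues, with a mean of 21.6 CPM in muscle against 35.95 CPM in lung. It was higher in muscle than in skin (log2 fold change 1.92 ± 0.27, adjusted p = 5.78e-06).

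In the creatine and adenylate group 5 of 9 genes were higher in muscle than in the 4 tissues, namely Ckm, Ckmt2, Ampd1, Adssl1 and the adenylate kinase Ak1. Ckm had a log2 fold change of 10.68 ± 1.35 against the nearest of the 4 tissues (adjusted p = 5.56e-07) and 1.12 ± 0.91 against skin, which did not pass (adjusted p = 0.326). Its lowest muscle library was only just above its highest skin library, and this SE too rests on all young tissues. Ckmt2, the creatine kinase of muscle mitochondria, had 1762, 2731, 1231 and 1829 CPM in muscle and 804, 347, 715 and 687 CPM in skin (log2 fold change 1.54 ± 0.56, adjusted p = 0.0266). That call was lost without muscle library 2 or 4 or skin library 2, with adjusted p of 0.0686, 0.0523 and 0.0688. Ampd1, the muscle AMP deaminase, had 2265, 1951, 1909 and 2552 CPM in muscle and 507, 369, 683 and 601 CPM in skin (log2 fold change 2.04 ± 0.53, adjusted p = 0.00334). Muscle and skin did not overlap for either enzyme. The enzymes that make creatine had their highest means elsewhere. Gatm had a mean of 11.8 CPM in muscle and 870.1 CPM in kidney, and Gamt 16.4 CPM in muscle and 296 CPM in liver. The creatine transporter Slc6a8 was at 194 ± 22.6 CPM in muscle, 155 ± 21.8 CPM in skin and 321 ± 29.5 CPM in kidney (SD, n = 4 each).

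Glycogen and glycolysis genes were higher in muscle than in the 4 tissues in 23 of the 26 members tested, and 16 of these 23 were also higher than in skin. Pygm, the muscle glycogen phosphorylase, had 10890, 10900, 8005 and 11300 CPM in muscle, 3449, 1723, 3008 and 4251 CPM in skin and at most 43.98 CPM in the 16 libraries, with a log2 fold change over skin of 1.76 ± 0.38 (adjusted p = 0.000692). Phka1 and Phkg1, muscle subunits of the phosphorylase kinase that activates Pygm, were 2.52 ± 0.18 and 2.20 ± 0.27 higher than in skin on the log2 scale (adjusted p = 3.17e-09 and 1.14e-06). No skin library reached the muscle range of these 3 genes. Aldoa, Tpi1, Eno3 and Ldha had log2 fold changes of 0.25 ± 0.29, 0.44 ± 0.19, 0.57 ± 0.30 and -0.01 ± 0.22, none of which passed (adjusted p = 0.505, 0.0569, 0.121 and 0.985). Without skin library 4 Aldoa, Tpi1 and Eno3 passed as higher in muscle (adjusted p = 0.0209, 0.0155 and 0.0477). Fbp2, the muscle fructose bisphosphatase, was lower in muscle than in skin, at 32.4, 35.9, 34.8 and 59.6 CPM in muscle and 142, 27.2, 134 and 163 CPM in skin (log2 fold change -1.47 ± 0.42, adjusted p = 0.00642, and 0.0688 without skin library 1). Gapdh, at 0.271 to 0.798 CPM in muscle, did not pass the filter on low counts. Gapdh, Pgk1, at 8.21 to 9.49 CPM, Tpi1, Ldha and Eno1 have processed copies elsewhere in the genome, so their counts are uncertain.

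Uptake and export of fuel were also high. Slc2a4, the insulin-responsive glucose transporter, had 1071, 1235, 908 and 1236 CPM in muscle and 436, 184, 453 and 432 CPM in skin (log2 fold change 1.60 ± 0.52, adjusted p = 0.0148). Slc16a3, the lactate exporter, had 434, 446, 167 and 353 CPM in muscle and 120.5, 64.9, 89.1 and 75.2 CPM in skin (log2 fold change 2.00 ± 0.25, adjusted p = 1.44e-06). Muscle library 3 was low and still above every skin library. Hk2, the hexokinase that traps glucose in muscle, was 1.21 ± 0.29 higher than in skin on the log2 scale (adjusted p = 0.00158).

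Of 24 oxidative and fatty acid genes, 14 were higher in muscle than in the 4 tissues and 6 of these 14 higher than in skin. Mb, the oxygen store myoglobin, had 2173, 5041, 2183 and 3430 CPM in muscle and 4223, 2169, 2727 and 5300 CPM in skin, which overlapped. The muscle forms of cytochrome oxidase Cox6a2, Cox7a1 and Cox8b were higher than in the 4 tissues with log2 fold changes of 5.69 ± 0.56, 4.86 ± 0.41 and 6.12 ± 0.61 (adjusted p = 1.52e-08, 1.52e-09 and 2.1e-08), and none of the 3 passed against skin. Enzymes of the citric acid cycle did pass there: Cs, the citrate synthase, had 1096, 1288, 1083 and 1144 CPM in muscle and 578, 439, 548 and 503 CPM in skin (log2 fold change 1.15 ± 0.12, adjusted p = 2.55e-07). Idh3a, a subunit of isocitrate dehydrogenase, was 1.44 ± 0.17 higher than in skin on the log2 scale (adjusted p = 1.21e-06). The fatty acid oxidation genes Acadm and Hadha had means of 248 and 494 CPM in muscle and 343 and 668 CPM in liver, and they are 2 of the 10 members not above all 4 tissues. Cd36 and Lpl, which bring fatty acids into muscle, fat and endothelium, were highest in muscle library 3, at 1129 and 2708 CPM, the library with the highest adipocyte sum. The part of fat in these levels was not tested.

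The 6 nuclear regulators of oxidative metabolism in this group were all higher in muscle than in skin, and 1 of them, Perm1, was also higher than in the 4 tissues. Ppargc1a, the coactivator of mitochondrial genes, had 78.6, 91.8, 56.5 and 73.04 CPM in muscle, 35.4, 13.9, 27.6 and 19.00 CPM in skin and a kidney mean of 133 CPM (log2 fold change over skin 1.65 ± 0.30, adjusted p = 0.000139). Esrrg and Ppara, nuclear receptors that act with it, were 2.31 ± 0.32 and 3.00 ± 0.25 higher than in skin on the log2 scale (adjusted p = 5.76e-06 and 1.33e-08), while kidney had a mean of 112 CPM for Esrrg and liver 311 CPM for Ppara. Perm1, a muscle regulator that acts with PGC-1 and ERR factors, was above all 5 tissues, at 4.45 ± 0.27 against the nearest of the 4 (adjusted p = 1.26e-11) and 1.25 ± 0.24 against skin (adjusted p = 0.000207).

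In the enzyme and channel families looked at, 1 gene led in muscle. Levels between genes were compared per length, as TPM, which takes the summed exon length of each gene into account. Pygm reached 6338 ± 393 TPM (mean ± SD, n = 4), the liver form Pygl 17.3 ± 19.6 TPM and the brain form Pygb 27.8 ± 22.6 TPM. Among enolases Eno3 had 9027 ± 709.5 TPM, Eno1 11.1 ± 7.90 TPM and Eno2 3.06 ± 0.168 TPM. The ryanodine receptors stood at 380.4 ± 42.5 TPM for Ryr1, 0.303 ± 0.0761 TPM for Ryr3 and 0.0236 ± 0.0152 TPM for the cardiac Ryr2. In each of these families the gaps between the leading form and the others were larger than the spread between libraries. The gap to Eno1 is uncertain, as its counts are, because that gene has processed copies elsewhere in the genome. Hexokinase was led by Hk2 with 215 ± 14.8 TPM, ahead of Hk1 with 6.00 ± 0.962 TPM, and carnitine palmitoyltransferase by Cpt1b with 279 ± 17.8 TPM, ahead of the liver form Cpt1a with 7.31 ± 1.86 TPM. Pfkfb3, the bifunctional enzyme that sets fructose bisphosphate, led its family at 234 ± 56.9 TPM, with the muscle and liver gene Pfkfb1 at 46.8 ± 5.63 TPM. Among cytochrome oxidase families the muscle forms led, with Cox7a1 at 1066 ± 172 TPM over Cox7a2 at 407 ± 33.1 TPM, Cox6a2 at 3311 ± 524 TPM over Cox6a1 at 123 ± 94.9 TPM and Cox8b at 2274 ± 175 TPM over Cox8a at 158 ± 106 TPM. Of all 65 family members tested, 29 were higher in muscle than in the 4 tissues, beside 13.8% of all genes tested. A further 5 were lower, a share below the 9.02% of all genes, namely Actn1, Aldoc, Cpt1a, Phkg2 and Slc25a5. The 5 became 9 with library totals and 10 without muscle library 3. Whether other family members, such as Cox6a1 and Slc25a5, have processed copies was not tested, so their counts may be uncertain as well.

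**Figure D3:**
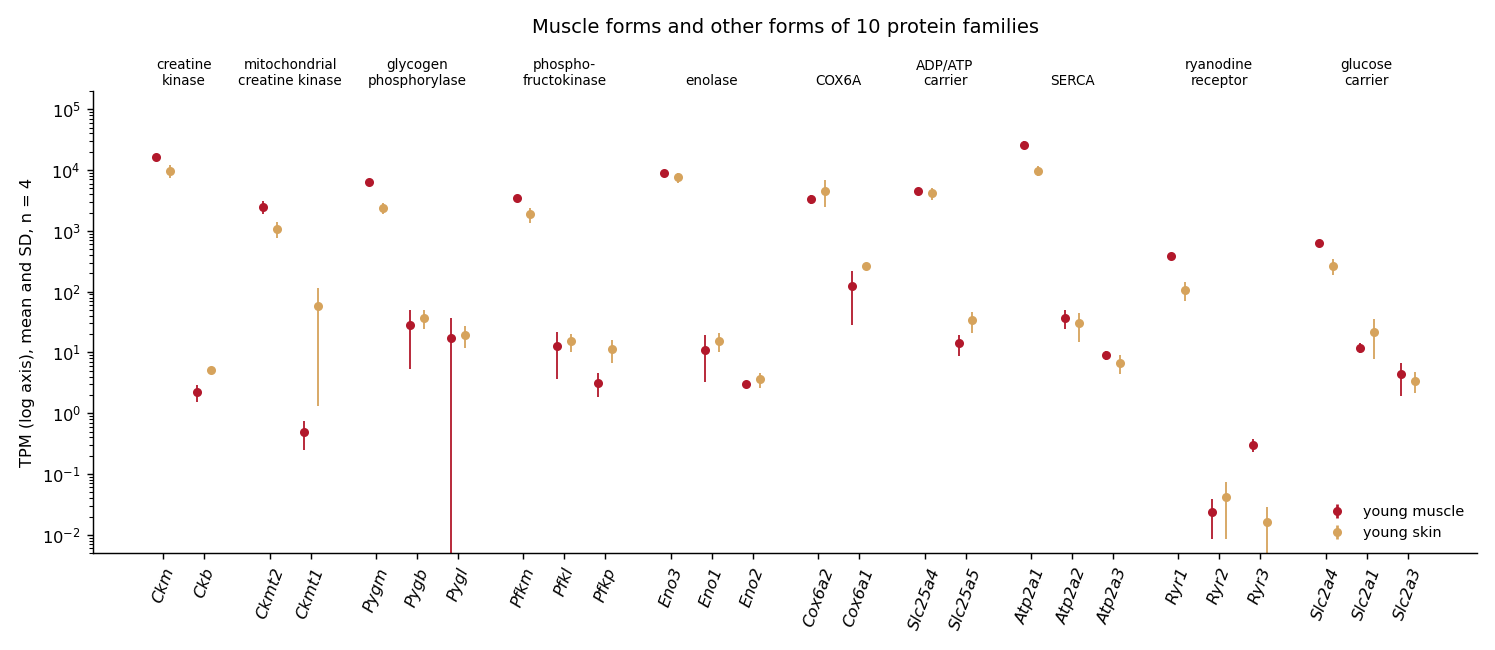
TPM of the members of 10 gene families in young muscle, left, and young skin, right (mean and SD over 4 libraries each, log axis). Within muscle the form known from muscle leads each family, and the same form leads in skin. Counts of members with processed copies elsewhere in the genome are uncertain.

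The myogenic factors were all detected, and Myf6 was by far the highest of the 4. Myf6, also called MRF4, had 136, 136, 87.5 and 152 CPM in muscle and 82.3, 47.3, 91.96 and 99.3 CPM in skin, and at most 1 count in each of the 4 tissues (adjusted p = 2.79e-10). Per length Myf6 had 199.8 ± 28.5 TPM, Myod1 33.5 ± 3.90 TPM, Myog 12.5 ± 6.34 TPM and Myf5 2.60 ± 0.449 TPM. Myod1, the founding myogenic factor, was higher in muscle than in skin (log2 fold change 1.50 ± 0.33, adjusted p = 0.00255), whereas Myog and Myf5 were not called (adjusted p = 0.482 and 0.606). Myog had 4.62, 7.35, 9.18 and 15.97 CPM in muscle and 5.09, 4.08, 10.99 and 11.6 CPM in skin. Myf5 had 3.41, 3.02, 2.21 and 2.28 CPM in muscle and 2.65, 1.43, 3.17 and 2.11 CPM in skin.

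Of the 27 muscle transcription factor genes, 24 were higher in muscle than in the 4 tissues, and 21 of these 24 were also higher than in skin. With library totals 12 were higher than in all 5 tissues, and past a 2-fold change 4 were. Eya4, a transcriptional coactivator, had 87.3, 72.8, 52.8 and 79.9 CPM in muscle and 28.6, 24.4, 22.8 and 20.3 CPM in skin. Its log2 fold change over skin was 1.60 ± 0.32 (adjusted p = 0.000281). Tbx15, a T-box factor of fast fibres, had 545, 461, 303 and 502 CPM in muscle and at most 0.249 CPM in the 16 libraries (log2 fold change 11.45 ± 0.42, adjusted p = 2.16e-14). For Eya4 every muscle library was above every skin library, while the ranges of Tbx15 overlapped. Mef2c, a MEF2 factor, had 834, 807, 577 and 816 CPM in muscle and a spleen mean of 177 CPM (log2 fold change 2.10 ± 0.23, adjusted p = 3.92e-08). Lbx1, a factor of migrating muscle precursors, was higher in muscle than in skin by 1.81 ± 0.28 on the log2 scale (adjusted p = 9.55e-05). Pax7, the factor of muscle stem cells, had 9.08, 8.73, 7.94 and 8.91 CPM in muscle and 3.21, 1.46, 3.87 and 2.49 CPM in skin (log2 fold change 1.67 ± 0.38, adjusted p = 0.00138). Tead4 was lower in muscle than in skin (-1.15 ± 0.26, adjusted p = 0.000938), and Tead1, which binds the same M-CAT boxes, was higher (1.07 ± 0.23, adjusted p = 0.000511).

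Of 19 genes that mark position along the body and limb, 14 passed the filter on low counts. Of these, 6 were higher than the 4 tissues and 4 of those 6 higher than skin, beside 13.8% and 7.7% of all genes tested. Hoxc10 had 126, 108, 80.2 and 110.2 CPM in muscle, 10.2, 1.15, 7.17 and 0.640 CPM in skin and a kidney mean of 18.7 CPM, with a log2 fold change over skin of 4.46 ± 0.66 (adjusted p = 5.25e-05). Hoxc11 had 10.4, 8.94, 3.99 and 6.71 CPM in muscle and 0.171, 0.0348, 0.373 and 0.128 CPM in skin (log2 fold change 5.37 ± 0.53, adjusted p = 5.77e-06). Both are among the posterior genes of the HoxC cluster, and muscle and skin did not overlap for either. There were 5 genes lower in muscle than in skin, beside 25.8% of all genes tested. Hoxd8 had 13.1, 20.03, 9.45 and 9.65 CPM in muscle and 75.2, 46.8, 58.9 and 57.2 CPM in skin (log2 fold change -2.19 ± 0.48, adjusted p = 0.000795). Hoxd9, Hoxd10, Hoxc8 and Pitx1, the hindlimb factor, were lower by the test as well, with log2 fold changes of -1.99 ± 0.44, -1.43 ± 0.48, -1.13 ± 0.43 and -2.65 ± 0.49 (adjusted p = 0.000768, 0.0186, 0.0414 and 0.00023). Leaving out 1 library ended the call of Hoxd10 in 4 cases, with adjusted p up to 0.075, and that of Hoxc8 in 9, with adjusted p up to 0.179. Pitx1 had 0.770, 0.252, 1.35 and 0.628 CPM in muscle, the forelimb factor Tbx5 4.50, 3.27, 4.38 and 2.47 CPM and Tbx4, active in hindlimb and lung, 4.42, 4.54, 4.03 and 5.57 CPM.

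Secreted factors and growth control were mixed, with 14 of 21 members higher than the 4 tissues and 4 of those higher than skin. The 4 became 2 without the low-count filter and 0 past a 2-fold change. Against skin alone 5 of the 21 were higher and 2 lower, beside 24.2% and 25.8% of all genes tested. Mstn, which encodes the growth inhibitor myostatin, had 157, 136, 109.8 and 175 CPM in muscle, 381, 295, 484 and 448 CPM in skin and at most 0.290 CPM in the 16 libraries. Every skin library was above every muscle library, and the log2 fold change was -1.47 ± 0.27 (adjusted p = 0.000225). Fndc5, the irisin precursor, was higher in muscle than in skin (1.35 ± 0.30, adjusted p = 0.000724), as was the activin receptor Acvr2b (2.23 ± 0.22, adjusted p = 8.97e-08). The fusion genes Mymk and Mymx were at or below 0.0840 and 0.203 CPM in all muscle libraries. The small heat shock gene Hspb1 was lower in muscle than in skin, with 3.25 ± 0.540 CPM in muscle and 7.88 ± 3.54 CPM in skin (SD, n = 4 each; log2 fold change -1.28 ± 0.35, edgeR adjusted p = 0.00517). Of the same family, Hspb6 had 954 ± 207 CPM in muscle and 1023 ± 342 CPM in skin and Cryab 856 ± 158 CPM in muscle and 1122 ± 471 CPM in skin, and neither difference passed (edgeR adjusted p = 0.766 and 0.308). Whether Hspb1 has processed copies elsewhere in the genome was not tested, so its counts may be uncertain like those of Gapdh.

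A different set led when skin was included. Among genes called higher than in all 5 tissues, with no overlap with any of the 20 other libraries and a mean of at least 10 CPM in muscle, the 12 highest by their smallest log2 fold change were Kera, Mettl11b, Igfn1, Six2, Kcng4, Mettl21e, Fmod, Comp, Nt5c1a, Best3, B230312C02Rik and Mybph. Kera, the corneal and tendon proteoglycan keratocan, had 93.04, 30.6, 78.5 and 65.8 CPM in muscle, 0.0428, 0, 0.140 and 0 CPM in skin and at most 0.116 CPM in the 16 libraries (adjusted p = 1.16e-08 over the 5 tissues). The matrix proteins Fmod and Comp, both of tendon and cartilage, were also in this set. Fmod had 507, 206, 396 and 508 CPM in muscle, 21.8, 2.06, 8.71 and 8.95 CPM in skin and at most 28.8 CPM elsewhere. Comp had 26.8, 13.9, 28.6 and 37.8 CPM in muscle and 0.513, 1.22, 1.12 and 0.320 CPM in skin. Muscle lay above skin for both. The tendon marker Tnmd had 45.04, 19.9, 35.5 and 29.4 CPM in muscle and 7.92, 4.49, 2.98 and 5.25 CPM in skin (log2 fold change 2.66 ± 0.39, adjusted p = 2.5e-05), but the tendon factor Scx was lower in muscle than in skin (-1.80 ± 0.30, adjusted p = 4.38e-05). The part of tendon in the muscle libraries was not tested.

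Kcng4, a modifier subunit of potassium channels, had 120.3, 115, 25.3 and 68.5 CPM in muscle and 2.44, 3.73, 0.885 and 2.49 CPM in skin (log2 fold change 5.05 ± 0.37, adjusted p = 3.63e-09). Nt5c1a, the cytosolic nucleotidase that removes AMP, had 14.5, 13.7, 8.63 and 13.5 CPM in muscle and 1.41, 0.697, 1.07 and 0.384 CPM in skin (3.80 ± 0.44, adjusted p = 6.07e-07). Mettl21e, a methyltransferase-like gene, had 33.5, 35.4, 11.2 and 55.02 CPM in muscle and 0.257, 0.905, 1.12 and 2.37 CPM in skin (5.01 ± 0.64, adjusted p = 1.42e-05). Library 3 was the lowest muscle library for all 3. Igfn1, an immunoglobulin-domain protein of the Z disc, varied most of these, at 18.3, 109, 25.8 and 41.2 CPM in muscle with library 2 highest, and 0.0428, 0.104, 0 and 0 CPM in skin. Six2, a homeobox factor, had 28.1, 9.70, 10.7 and 17.7 CPM in muscle and 0.642, 0.522, 0.373 and 0 CPM in skin (5.38 ± 0.55, adjusted p = 5.01e-07).

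Among genes called lower than in all 5 tissues, with a mean of at least 10 CPM in every other tissue, the 12 lowest by log2 fold change were Faah, Celsr1, Rab11fip1, Spint2, Rasgef1b, Shroom3, Plxnb1, Stxbp2, Ptpn6, Ctsh, Cd82 and Alcam. Faah, the hydrolase that degrades anandamide, had 0.446, 0.588, 0.619 and 0.314 CPM in muscle and 11.3, 47.4, 13.8 and 37.03 CPM in skin, and its mean was 31.4 CPM in lung and 341 CPM in liver. The log2 fold change was -5.99 ± 0.40 against the nearest of the 4 tissues (adjusted p = 5.18e-11) and -5.79 ± 0.40 against skin (adjusted p = 1.86e-09). Celsr1, a cadherin of planar polarity in epithelia, had 0.730, 0.714, 0.890 and 0.667 CPM in muscle and 16.1, 70.6, 10.99 and 25.4 CPM in skin. Ptpn6, the phosphatase SHP-1 of blood cells, had 6.12, 3.36, 4.34 and 2.47 CPM in muscle and 14.5, 29.2, 18.4 and 20.8 CPM in skin, with a spleen mean of 379.7 CPM. In a list of 12 epithelial genes, 4 were lower than in all 4 tissues and 9 lower than in skin, beside 9.02% and 25.8% of all genes tested. The 4 became 7 with library totals and 2 without muscle libraries 1 and 2 together. Epcam, the epithelial adhesion molecule, had 0.162, 0.294, 0 and 0 CPM in muscle and 7.92, 92.6, 9.55 and 35.1 CPM in skin. The epithelial cadherin Cdh1 had 1.22, 2.18, 1.32 and 0.589 CPM in muscle and 38.2, 232, 36.2 and 76.9 CPM in skin.

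Summed over each list, fast-fibre genes varied less between the 4 muscle libraries than slow-fibre genes did. The 13 fast-fibre genes summed to 197500, 191100, 158500 and 226200 CPM in muscle libraries 1 to 4, and to 83330, 52860, 77830 and 113200 CPM in skin. The 12 slow-fibre genes summed to 165, 832, 317 and 434 CPM in muscle, and to 258, 216, 342 and 647 CPM in skin. Library 2 was high and library 1 low. Myl3, the slow light chain, had 1.14, 237, 17.6 and 26.8 CPM in muscle. Myl2, the slow and cardiac regulatory light chain, had 1.86, 82.3, 27.5 and 60.7 CPM, and the slow troponin Tnnt1 2.07, 24.2, 8.63 and 13.9 CPM. All 3 had library 1 lowest, and all 3 had library 2 highest, as had Myh7, Tnni1 and Tnnc1. In lung, where cardiac genes are present, the slow-fibre sum was 443 to 846 CPM. All 13 fast genes were higher in muscle than in the 4 tissues and 4 of those higher than in skin, and 7 of the 12 slow genes were higher than in the 4 tissues and 2 of those than in skin. For the fast genes the count higher than in all 5 tissues was 1 with library totals, 2 without the sex term, 7 in separate fits with 1 tissue each and 0 past a 2-fold change or without muscle libraries 1 and 2 together. It was 8 without liver library 4, and 2 without muscle library 2, skin library 2 or skin library 4. For the slow genes it was 4 without muscle library 1, and 1 without muscle library 2, skin library 1 or skin library 2. Myl3 is among these 7, and without muscle library 2 it was not called (adjusted p = 0.348 against the 4 tissues and 0.325 against skin).

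**Figure D4:**
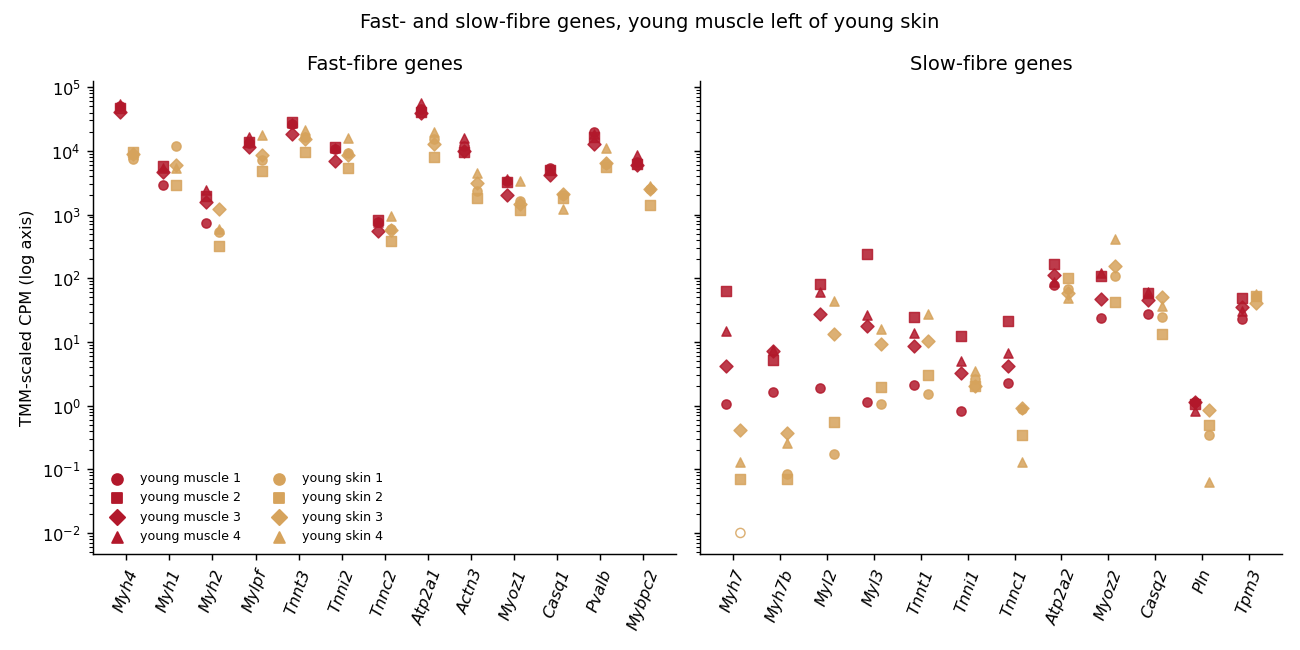
Level of 13 fast-fibre and 12 slow-fibre genes in each young muscle library, left, and each young skin library, right (CPM, log axis), with marker shape showing the library. Summed over the list, fast genes vary less between muscle libraries than slow genes, and the slow gene Myl3 spreads from 1.14 to 237 CPM. The open marker is a library with 0 counts drawn at 0.01 CPM.

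In a fit of the 10 muscle libraries alone, 1372 genes were higher in untreated old than in young muscle, 8.14% of the 16851 tested, and 1333 were lower, 7.91%. Of the 12 groups' members, 219 were tested, 35 were higher and 20 lower in untreated old muscle, and their median log2 fold change was 0.12 beside -0.02 over all genes tested. The counts depended on the untreated old libraries. Without library 3 of that group 27 genes were higher and 35 lower, without library 2 the counts were 462 and 349, and without library 1 they were 2082 and 1886. Without young library 1 they were 613 and 652, and without young library 2 they were 771 and 668. Acta1, Myh4 and Ckm were not called (log2 fold change -0.01 ± 0.23, -0.23 ± 0.22 and 0.36 ± 0.21, adjusted p = 0.986, 0.509 and 0.266). Markers of other cells differed between young and old muscle as well: 4 of 8 adipocyte, 5 of 6 tested kidney epithelial and 5 of 8 fibroblast and tendon markers were lower in untreated old muscle, and 7 of 7 tested erythroid markers were higher. Scx, the tendon transcription factor scleraxis, was the 1 fibroblast and tendon marker that was higher (log2 fold change 0.74 ± 0.20, adjusted p = 0.0378). The part of these other cells in the age results was not tested. Because the labels do not name the muscle dissected, all of these differences may reflect the muscle sampled as well as age.

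Among members of the muscle gene lists and of the ranked sets, Mylk4, Sln, Pax7, Hoxc8 and Six2 stayed called whichever muscle library was left out. Cell type markers outside those lists and sets, such as Scx, were not checked in this way. Sln had 13.7, 7.14 and 11.1 CPM in 4F-induced old, 6.03, 19.3 and 12.1 CPM in untreated old and 0.957, 1.13, 1.51 and 1.46 CPM in young muscle, and was higher in untreated old than in young muscle (log2 fold change 3.34 ± 0.39, adjusted p = 0.00453). Pax7 was lower in untreated old muscle, with 3.30, 2.41 and 2.18 CPM in 4F-induced old, 2.12, 1.43 and 1.14 CPM in untreated old and 5.96, 5.75, 5.53 and 5.92 CPM in young muscle (log2 fold change -1.95 ± 0.22, adjusted p = 0.00433). In both genes the untreated old and young libraries did not overlap. Hoxc8 had 0.481, 0.631 and 0.403 CPM in 4F-induced old, 0.682, 0.547 and 0.380 CPM in untreated old and 4.87, 4.89, 12.1 and 5.66 CPM in young muscle (-3.56 ± 0.43, adjusted p = 0.00473). Six2 had 2.06, 1.30 and 1.83 CPM in 4F-induced old, 0.970, 0.883 and 1.44 CPM in untreated old and 18.4, 6.39, 7.45 and 11.8 CPM in young muscle (-3.33 ± 0.43, adjusted p = 0.00597). Mylk4 was lower in untreated old muscle, with a log2 fold change of -1.05 ± 0.19 (adjusted p = 0.0124). Of the other position genes, Tbx5 had 0.103, 0.0394 and 0.215 CPM in 4F-induced old, 0.144, 0 and 0.0422 CPM in untreated old and 2.95, 2.16, 3.05 and 1.64 CPM in young muscle (-5.12 ± 0.65, adjusted p = 0.00597), and Hoxa13 was higher in untreated old muscle (3.41 ± 0.48, adjusted p = 0.00717). Without untreated old library 3 both missed the threshold, each with an adjusted p of 0.0548. Whether the same muscle was dissected in young and old mice is not stated in the labels. Age and the muscle sampled therefore cannot be told apart for these genes or for any other difference between young and old muscle.

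**Figure D5:**
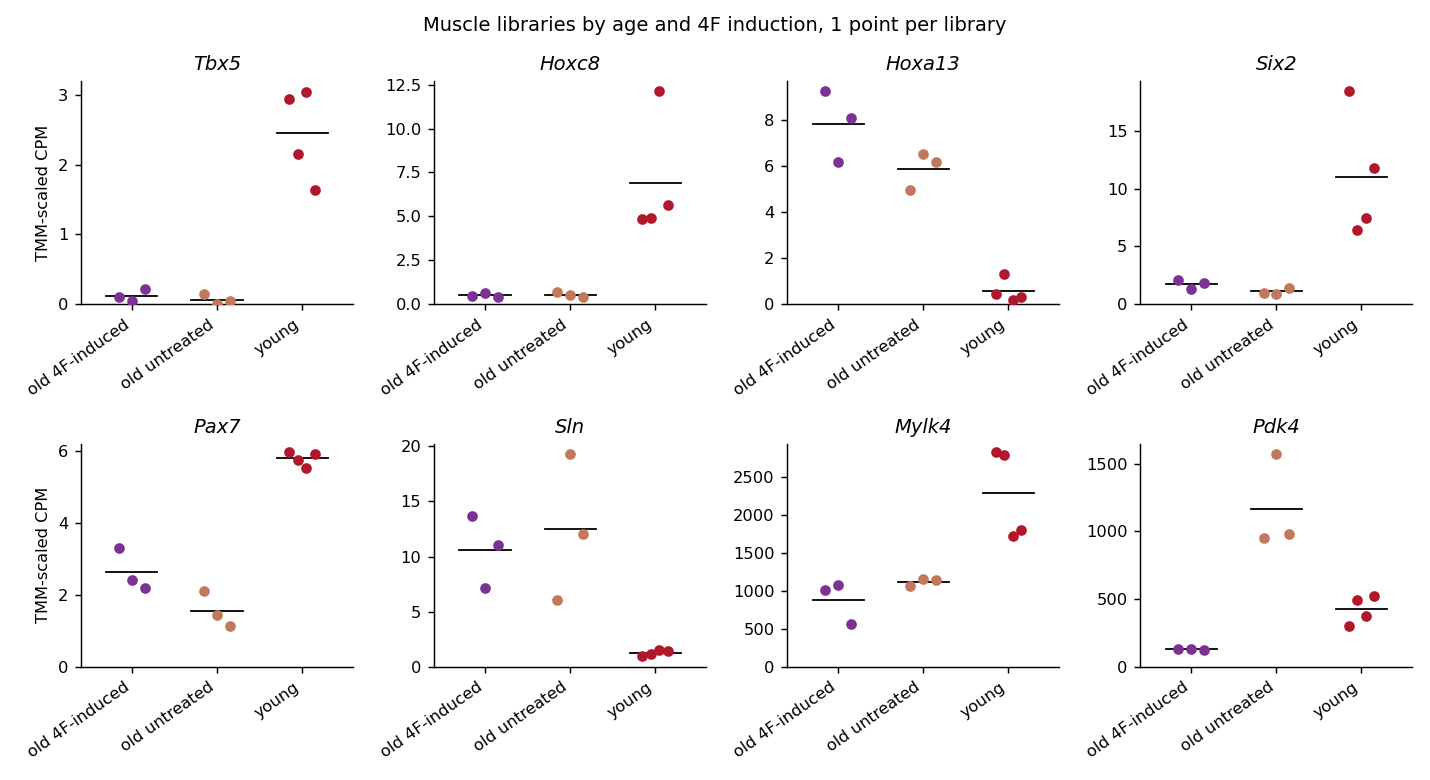
Level of 8 genes in each muscle library (CPM in the fit of 10 muscle libraries, linear axes from 0), with 4F-induced old, untreated old and young muscle from left to right and bars at the means. Tbx5, Hoxc8, Six2 and Pax7 are highest in young muscle, Sln is highest in old muscle, and Pdk4 is low in all 3 4F-induced libraries.

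Induction of the cassette in old mice moved 1 gene past the threshold in muscle. Pdk4, the kinase that shuts off pyruvate dehydrogenase and a member of the oxidative group, had 133, 131 and 125 CPM in 4F-induced old, 948, 1576 and 979.8 CPM in untreated old and 298, 494, 378 and 525 CPM in young muscle. It was lower in 4F-induced than in untreated old muscle (log2 fold change -3.17 ± 0.27, edgeR adjusted p = 0.0102), in 3 of 3 libraries, and is 0.00593% of the 16851 genes tested. No gene was called higher by edgeR, while 1071 genes, or 6.36%, had an unadjusted p under 0.05 in either direction and DESeq2 called 65. Without any 1 of the 4F-induced libraries no gene passed. Mice lacking the cassette were not given the drug, so effects of doxycycline and of the 4 factors cannot be told apart.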

How the data were processed

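Libraries were made with the TruSeq Stranded Total RNA kit from RNA purified on RNeasy columns, per the labels' protocols. The values are raw counts of reads per Ensembl gene, deposited for each library and as 1 table of 60 libraries that held the same numbers, and the submitters' processing notes name the build GRCm38. Which aligner, counter, strand setting and annotation release were used is not given in the sources used here. Of 52636 gene IDs, 52403 matched the annotation used for names, and the other 233 held 0.0231% of the counts. No 2 libraries of a group agreed within sampling noise, with a chi-square per degree of freedom of at least 9.483.

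edgeR 4.0.16 in R 4.3.3 with limma 3.58.1 fitted the 24 young libraries in 1 quasi-likelihood model of tissue and sex, after filterByExpr and TMM scaling, which left 21377 genes. The same model was fitted to the untreated old and to the 4F-induced old libraries, and 1 model of age and induction to the 10 muscle libraries. Adjusted p is Benjamini-Hochberg over all genes tested, and 0.05 is the threshold. Each test is two-sided. CPM uses TMM-scaled library sizes, and TPM uses the summed exon length of each gene. The scripts were tested on simulated data. Tables and plots were made with Python 3.11.15, pandas 2.3.3 and matplotlib 3.10.9. Alternatives were DESeq2 1.42.0 as test and as scaling, library totals, no filter, no sex term, a block by sample number, a 2-fold test and leaving out each library.

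Genes were named by rules of size, given beside each set, and as members of lists by role. The values of a few list members are not reported here. The members and lists were chosen with earlier results of these data known. The labels number the libraries but do not say that they come from separate mice, so p-values measure only the spread between these samples. A gene with 3 counts or fewer in the nearest tissue was given no fold change, but the ranked sets used edgeR's value for such genes. Promoter sequences are RefSeq's on GRCm38.p6.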

Additional observations from a re-analysis of the deposited data

Results flagged for a closer look

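In 18 of 246 genes looked at, 1 of the 4 young muscle libraries lay far from the other 3, with a gap to the nearest library above Dixon's 95% critical value of the whole range. Chance flags about 1 in 20 genes. Library 3 held 14 of the 18 cases, library 4 held 3 and library 2 held 1.

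In 11 cases library 3 was low. The troponin Tnnt3 had 18420 CPM in it against 26450 to 28080 CPM in the other 3 muscle libraries, and the phosphorylase Pygm 8005 CPM against 10890 to 11300 CPM. The kinase subunit Phkg1 had 553.6 CPM against 772.5 to 811.7 CPM. Among factors, Mef2c had 577.4 CPM against 806.6 to 833.9 CPM and Mef2d 322.8 CPM against 387.8 to 398 CPM. The calcium channel subunit Cacng1 had 309.5 CPM against 409.4 to 423.3 CPM, and the pump inhibitor Mrln 43.75 CPM against 79.66 to 82.67 CPM. The myosin chaperone Unc45b had 438 CPM against 512.7 to 520.8 CPM, and the Z-disc gene Synpo2l 215.3 CPM against 288.1 to 303 CPM. The protease Capn3 had 227.8 CPM against 287.9 to 293.4 CPM, and the nucleotidase Nt5c1a 8.633 CPM against 13.54 to 14.47 CPM.

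In the other 3 cases library 3 was high. Utrn had 220.7 CPM in it against 136.5 to 142.9 CPM, the growth factor Igf1 122.6 CPM against 49.65 to 58.79 CPM and Hoxc8 17.38 CPM against 7.419 to 8.516 CPM. Library 3 also had the highest adipocyte marker sum of the muscle libraries, at 6507 CPM against 654.5 to 2092 CPM, and the part of fat in these levels was not tested.

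Library 4 was high in titin, with 10650 CPM of Ttn against 8056 to 8263 CPM, in Ppp1r3c, a subunit that directs a phosphatase to glycogen, with 1478 CPM against 379.9 to 456.5 CPM, and in Fbp2, with 59.58 CPM against 32.39 to 35.86 CPM. Library 2 was high in the slow light chain Myl3, with 237.2 CPM against 1.135 to 26.77 CPM.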

How the results depend on the processing

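The 12 groups of muscle genes kept 176 to 183 members higher than in the 4 tissues when any 1 library was left out, and 165 with library totals, against 181 as reported. In young mice, counts over all genes moved by over 1.5 times under 3 settings. With library totals 4255 genes were higher than the mean of 5 tissues, 660 were higher and 1742 lower than in each of 5, 1715 were higher than in each of 4, and 2140 were higher and 9012 lower than in skin. When the test asked for more than a 2-fold change, 2970 genes were higher and 2887 lower than the mean of 5, 306 and 180 than in each of 5, 1350 and 528 than in each of 4, and 854 and 2030 than in skin. Without muscle libraries 1 and 2 together 636 genes were lower than in each of 5 tissues. Of the 12 groups' members, 107 were higher than in each of 5 tissues, 66 with library totals and 31 past a 2-fold change.

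Leaving out 1 library gave 6582 to 7193 genes higher and 6554 to 7427 lower than the mean of 5, 1413 to 1830 and 826 to 1128 for each of 5, 2775 to 3091 and 1680 to 2069 for each of 4, and 4722 to 5218 and 4909 to 5605 for skin. In untreated old mice the counts for each of 4 tissues were 2457 to 2974 and 1601 to 2012, and in 4F-induced old mice 2414 to 2551 and 1617 to 1619. With age they ran over 27 to 2082 genes higher and 35 to 1886 lower, lowest without untreated old library 3. For 4F induction they ran over 0 to 0 higher and 0 to 3 lower. There DESeq2 called 23 higher and 42 lower, and edgeR without a low-count filter 14 higher and 42 lower. The cause of these moves was not tested.

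Single genes that were called as reported or under the alternative changed sign in 4 cases. These were Slc25a20 against skin with library totals (-0.01375 instead of 0.43), Fbp1 and Actn1 against skin and Myl2 with age. Sign changes of genes called in neither were not counted, such as Myh7 with age, at -3.995 to 2.227 when 1 library was left out. Leaving out 1 library gave -3.01 to 0.15 for Fbp1 and -0.22 to 0.38 for Actn1, highest without skin library 2, and -2.78 to 1.63 for Myl2, highest without young muscle library 2. The sample numbers in the labels were tried as a replicate block. Ordered by these numbers, the tissues follow the same repeating sequence. Same-numbered libraries of muscle and another tissue deviated together weakly, with correlations of -0.0845 to 0.311 that were not all above 0.1. Skin libraries 1 and 2 gave the only negative value. Both libraries of the same tissue and sex had the same value, because their deviations were taken from their shared mean. Whether the numbers pair the samples therefore cannot be decided from these correlations, and the main fit did not pair them. With that block 6981 genes were higher and 7154 lower than the mean of 5, 1667 and 1013 than in each of 5, 2969 and 1955 than in each of 4, and 5188 and 5515 than in skin, with 181 members unchanged in number. Depth limits the genes near 0 in the other tissues, whose fold changes depend on a few counts.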

Other observations

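Endothelial and macrophage markers differed between young muscle and skin. Of 8 endothelial markers, 7 were higher in muscle than in skin by edgeR's quasi-likelihood test and 0 were lower, with a summed level of 920 to 1117 CPM in the 4 muscle libraries and 153 to 498 CPM in the 4 skin libraries. Lung had 3094 to 3482 CPM. Of 8 macrophage markers 0 were higher and 7 were lower in muscle than in skin, with sums of 284 to 670 CPM in muscle and 1023 to 2153 CPM in skin. Over all genes tested 24.2% were higher and 25.8% lower in muscle than in skin.

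Ucp1, the uncoupling protein of brown fat, had 0.122, 44.0, 124 and 0.393 CPM in muscle libraries 1 to 4, so libraries 2 and 3 stood apart from the others. Of 8 muscle stem cell markers 5 were higher in muscle than in the 4 tissues, 2 of those 5 also than in skin, and 1 was lower than in the 4 tissues. Over all genes tested these shares were 13.8%, 7.7% and 9.02%. Against skin alone 3 were higher, namely Pax7, Chodl and Heyl, and 1 was lower, beside 24.2% and 25.8% of all genes tested. The member lower in both was Sdc4, the syndecan-4 proteoglycan, with a log2 fold change against skin of -1.37 ± 0.26 (edgeR adjusted p = 0.000195). Among those higher was Chodl, a lectin, with 33.9, 25.6, 23.9 and 37.1 CPM in muscle.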
